A study of Mus musculus with 8 samples.

Results

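The replication-dependent histone genes of the mouse were followed in Th1 cells, the helper T cells of the interferon gamma response, after a knockdown of Pcbp1 and after treatment with the iron chelator CPX (ciclopirox olamine). They were taken by name, as every gene whose symbol begins with Hist1h, Hist2h, Hist3h or Hist4h, which gave 70 of the 33898 genes listed. By class, 6 encode the linker histone H1, 20 encode H2A, 19 encode H2B, 12 encode H3 and 13 encode H4. In the GENCODE M21 annotation (build GRCm38) 67 of them are protein-coding and 3, Hist1h2aj, Hist1h2al and Hist3h2bb-ps, are pseudogenes. They lie in clusters, with 56 genes on chromosome 13, 10 on chromosome 3, 3 on chromosome 11 and 1, Hist4h4, on chromosome 6.

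These genes supply the histones that package newly copied DNA, so their mRNAs are made in S phase and are destroyed when DNA synthesis stops. Their transcripts mostly lack introns. Unlike those of nearly all other protein-coding genes, most end without a poly(A) tail, in a short stem-loop instead. The stem-loop is bound by the protein encoded by Slbp, which acts with the U7 snRNP in cutting the 3′ end and later in export, translation and decay of the mRNA, while NPAT, at the histone locus body, drives their transcription. In activated T cells, which divide fast, histone mRNA is therefore a readout of cells in S phase and of the histone RNA each of them holds. Some of these genes are known to make polyadenylated transcripts as well, above all in cells that leave the cycle.

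In the first experiment, PCBP1 KD cells were transduced with a short hairpin RNA against Pcbp1 and Ctrl cells with a scrambled hairpin, and total RNA depleted of ribosomal RNA was sequenced. In the second, CPX cells received the chelator and DMSO cells its solvent, and per the labels polyA RNA was sequenced. Each of the 4 groups had 2 libraries. All cells were C57BL/6 CD4 T cells, stimulated by antibodies to CD3 and CD28 in medium with IL-12 (2 ng/ml) and a blocking antibody to IL-4 (5 µg/ml). How many hairpins were used, the dose and hours of CPX and the time after transduction are not stated in the labels. Nothing says that the 2 libraries of a group came from separate cultures or mice. The p-values therefore measure the spread between these libraries, and whether it is technical or biological is not stated. In the knockdown, same-numbered libraries of both groups shared a difference in CD8 T cell markers, given below. The main fits leave the library number out, and fits with it as a block are given at the end.

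Totals per library were 15518303 and 14299941 counts with PCBP1 KD, against 14174293 and 14321096 with Ctrl. In the rescaled table of the other experiment they were 19193784 and 19239061 units with CPX, against 19662145 and 19547221 with DMSO. RPM below is 1000000 times a gene's share of its library's total. Pcbp1 itself stood at 15.1 and 16.1 RPM with PCBP1 KD, against 44.0 and 51.7 RPM with Ctrl, and fell, with a log2 fold change of -1.73 and an SE of 0.12 (adjusted p = 3.18e-05, quasi-likelihood test of edgeR). The 6 T cell markers and 4 Th1 markers checked were present in both experiments, and their sums are given beside the results. Levels are compared within an experiment only, since the RNA selection and the scale of the values differ between them.

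The 3′ stem-loop was read from the GENCODE transcripts, because it is the element at which these mRNAs end when they carry no poly(A) tail. The rule searched, after the stop codon, for a stem arm of 6 bases that begins with GG, a loop of 4 bases with T as its first base and T again after 1 other base, and the 6 bases that pair with the arm. It found the element in 46 of the 67 protein-coding histone genes (68.7%), against 102 of all 21866 protein-coding genes (0.466%). For a histone gene a transcript with the element was taken where any held it, and for all genes the longest protein-coding transcript. These rules are unlike and favour the histone share, and the share of all genes includes the histone genes. Of the 21 histone genes without the element, 19 have a gene model that stops fewer than 60 bases after the stop codon. In those the window that could hold it is short or missing. The other two are Hist1h2bc and Hist2h2be. The element began 21 to 58 bases after the stop codon (median 31). The sites below are printed in the DNA letters of GRCm38, on the strand of the gene, with the paired stem arms in capitals and the loop and 5 flanking bases on each side in lower case. They lie in the 3′ UTR at chr13:23739507-23739532 (plus strand, Hist1h1c), chr3:96220413-96220438 (minus, Hist2h2ac), chr13:23747198-23747223 (plus, Hist1h2bb), chr13:23561898-23561923 (minus, Hist1h3e), chr13:23581945-23581970 (plus, Hist1h4d) and chr13:22040961-22040986 (minus, Hist1h4i).
Hist1h1c: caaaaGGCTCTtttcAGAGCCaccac
Hist2h2ac: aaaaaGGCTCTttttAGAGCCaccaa
Hist1h2bb: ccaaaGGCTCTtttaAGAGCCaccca
Hist1h3e: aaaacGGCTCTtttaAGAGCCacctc
Hist1h4d: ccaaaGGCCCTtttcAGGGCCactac
Hist1h4i: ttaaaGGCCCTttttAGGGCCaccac

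Stem letters of the H4 genes were not found in the other classes. The form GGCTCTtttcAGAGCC was the most frequent, in 26 genes, of which 10 encode H2A, 8 encode H2B, 5 encode H3 and 3 encode H1. The form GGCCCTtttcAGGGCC was found in 7 genes, all of them encoding H4, and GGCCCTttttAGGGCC in 2 more H4 genes, and both have 1 more G-C pair in the stem. In 23 of the genes the annotated transcript runs over 100 bases past the loop. A poly(A) signal (AATAAA or ATTAAA in the last 40 bases of the model) was present in 14 of the 67 genes (20.9%), against 70.03% of all protein-coding genes. Transcripts were chosen by the same unlike rules. Models that stop at or near the stop codon, as in 19 histone genes without the stem-loop, leave little or no 3′ UTR to search. The 2 shares are therefore not directly comparable. The 14 genes with a signal include Hist1h1c, Hist1h4i, Hist2h4, Hist4h4 and Hist2h2be.

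Promoters were matched for 61 of the 70 genes in RefSeq (GRCm38.p6), and the 250 bases before each start were searched on both strands. CCAAT, the letters read by the factor NF-Y, was present in 50 of the 61 (82.0%), against 33.8% of all promoters of that length. Every H1, H2A and H2B promoter matched held it, as did 8 of 10 H3 promoters, but 3 of 12 H4 promoters did. TATAAA was present in 29 of the 61 (47.5%), against 12.4% of all promoters. The octamer ATTTGCAT, read by OCT1, was present in 7 of 17 H2A and 6 of 16 H2B promoters and in no H1, H3 or H4 promoter, against 1.60% of all promoters. None of these motifs is contained in another, though their ends can share letters, and a match is a description and not a site of binding. The promoters of a linker, a core H2B and a core H4 gene are shown, with the motifs in capitals. These 3 genes are among the highest of their classes in Ctrl per kilobase of coding sequence. They lie at chr13:23738557-23738806 (plus strand, Hist1h1c), chr13:23746484-23746733 (plus, Hist1h2bb) and chr13:23581318-23581567 (plus, Hist1h4d) of GRCm38.
Hist1h1c: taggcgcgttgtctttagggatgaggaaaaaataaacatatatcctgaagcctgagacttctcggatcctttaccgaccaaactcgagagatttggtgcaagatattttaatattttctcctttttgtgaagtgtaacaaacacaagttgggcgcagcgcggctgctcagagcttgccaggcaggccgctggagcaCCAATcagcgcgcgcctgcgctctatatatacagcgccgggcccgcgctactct
Hist1h2bb: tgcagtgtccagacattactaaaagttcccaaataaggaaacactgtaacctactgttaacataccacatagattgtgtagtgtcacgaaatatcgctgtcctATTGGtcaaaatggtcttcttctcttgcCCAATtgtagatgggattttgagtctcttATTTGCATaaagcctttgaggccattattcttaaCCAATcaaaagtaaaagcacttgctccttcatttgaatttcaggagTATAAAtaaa
Hist1h4d: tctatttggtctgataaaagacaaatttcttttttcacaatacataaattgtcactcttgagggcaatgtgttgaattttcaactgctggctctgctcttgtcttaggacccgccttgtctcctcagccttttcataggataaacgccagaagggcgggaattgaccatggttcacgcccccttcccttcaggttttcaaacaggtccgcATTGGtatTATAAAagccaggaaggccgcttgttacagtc

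After the knockdown, histone mRNA was lower in total RNA across all 5 classes. Of the 57 genes tested, 41 fell, where 26.7% of all genes tested fell and 56.0% were called in either direction (edgeR's quasi-likelihood test, Benjamini-Hochberg adjusted p under 0.05). Among these 57, none was called higher by edgeR, DESeq2 or limma with all 4 libraries and the group as the only term, where 29.3% of all genes were by edgeR, and 1 was higher at an unadjusted p under 0.05. With no filter on low counts edgeR called 2 higher, Hist1h2ak and Hist1h3d. The log2 fold change was negative for 54 of the 57 and positive for 3, with a median of -1.04, beside 0.00 over all genes tested. Both PCBP1 KD libraries were below both Ctrl libraries for 47 genes (32.7% of all genes tested) and above them for 1, Hist1h3d (45.8% of all genes tested), while 9 genes overlapped.

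Summed over the 70 genes, histone mRNA stood at 1598 and 888 RPM with PCBP1 KD, against 2605 and 2376 RPM with Ctrl. The means were 1243 ± 503 RPM with PCBP1 KD and 2491 ± 161 RPM with Ctrl (SD, n = 2 each), 2.00-fold lower, and the groups did not overlap. With 2 libraries against 2, the exact permutation test cannot give less than p = 0.333, its value here. These genes took 0.160% and 0.0888% of all counts with PCBP1 KD, against 0.260% and 0.238% with Ctrl. In bulk RNA, fewer cells in S phase and less histone RNA per cell cannot be told apart. Summed levels of markers of the labelled cell type were lower too, which does not give the change of each marker. The 4 Th1 markers summed to 25121 and 19252 RPM with PCBP1 KD, against 50719 and 41237 RPM with Ctrl, and the 6 T cell markers to 821 and 825 RPM with PCBP1 KD, against 1115 and 1158 RPM with Ctrl. Their part in the histone values was not tested.

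**Figure D1:**
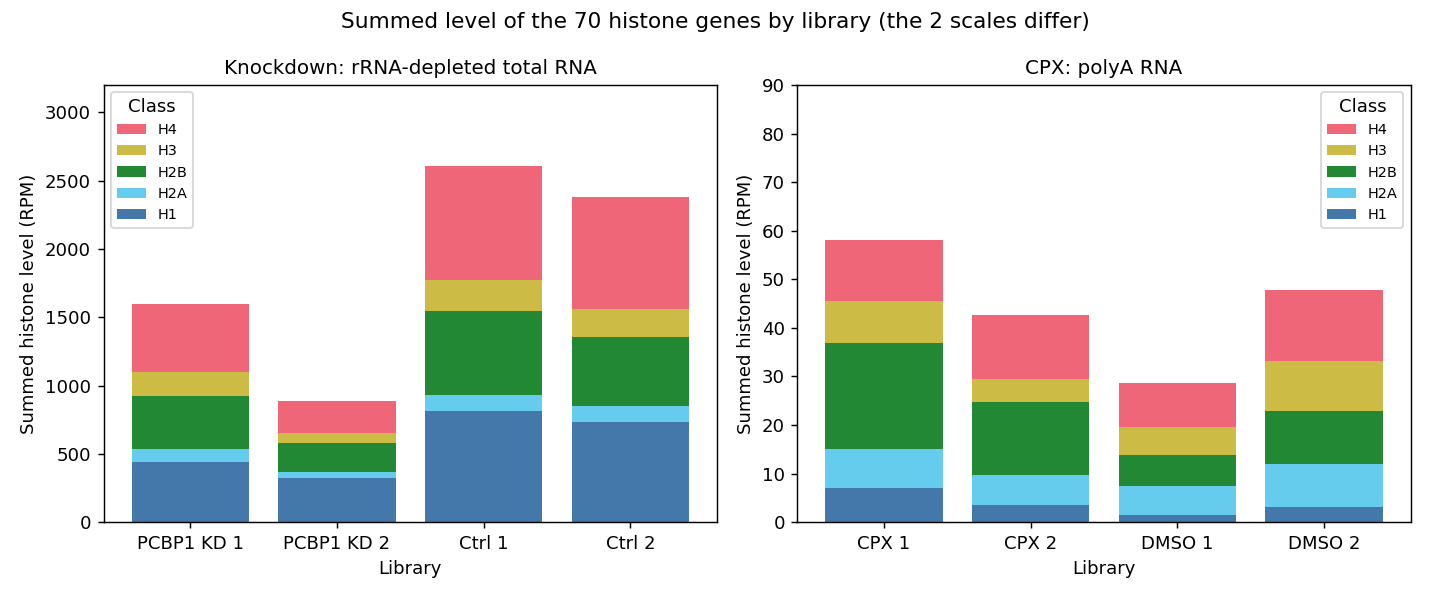
Summed level of the 70 histone genes in each library (RPM, linear axes that start at 0 and differ in scale), stacked by class. In the left panel the PCBP1 KD libraries reach 1598 and 888 RPM and the Ctrl libraries 2605 and 2376 RPM. In the right panel the CPX libraries reach 58.0 and 42.6 RPM and the DMSO libraries 28.6 and 47.8 RPM.

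Each class was lower by its sum. H4 summed to 498 and 235 RPM with PCBP1 KD, against 832 and 819 RPM with Ctrl. H1 summed to 444 and 324 RPM with PCBP1 KD, against 816 and 737 RPM with Ctrl. H2B summed to 384 and 212 RPM with PCBP1 KD, against 614 and 507 RPM with Ctrl. H4, H1 and H2B held most of the histone counts in each group. H3 summed to 179 and 75.2 RPM with PCBP1 KD, against 227 and 201 RPM with Ctrl, and H2A to 93.8 and 41.8 RPM with PCBP1 KD, against 116 and 112 RPM with Ctrl. The groups were separate in each of the 5 classes. Per kilobase of coding sequence, the highest gene was Hist1h4d, at 575 and 274 RPM with PCBP1 KD, against 841 and 792 RPM with Ctrl. Hist1h1c came next in Ctrl, at 250 and 177 RPM per kilobase with PCBP1 KD, against 539 and 514 RPM per kilobase with Ctrl. Hist1h4c followed at 263 and 125 RPM per kilobase with PCBP1 KD, against 438 and 450 RPM per kilobase with Ctrl. In all 3 genes the groups were separate. This scale leaves out bases past the stop codon, 822 in the model of Hist1h4d, so genes with long models can rank higher on it.

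**Figure D2:**
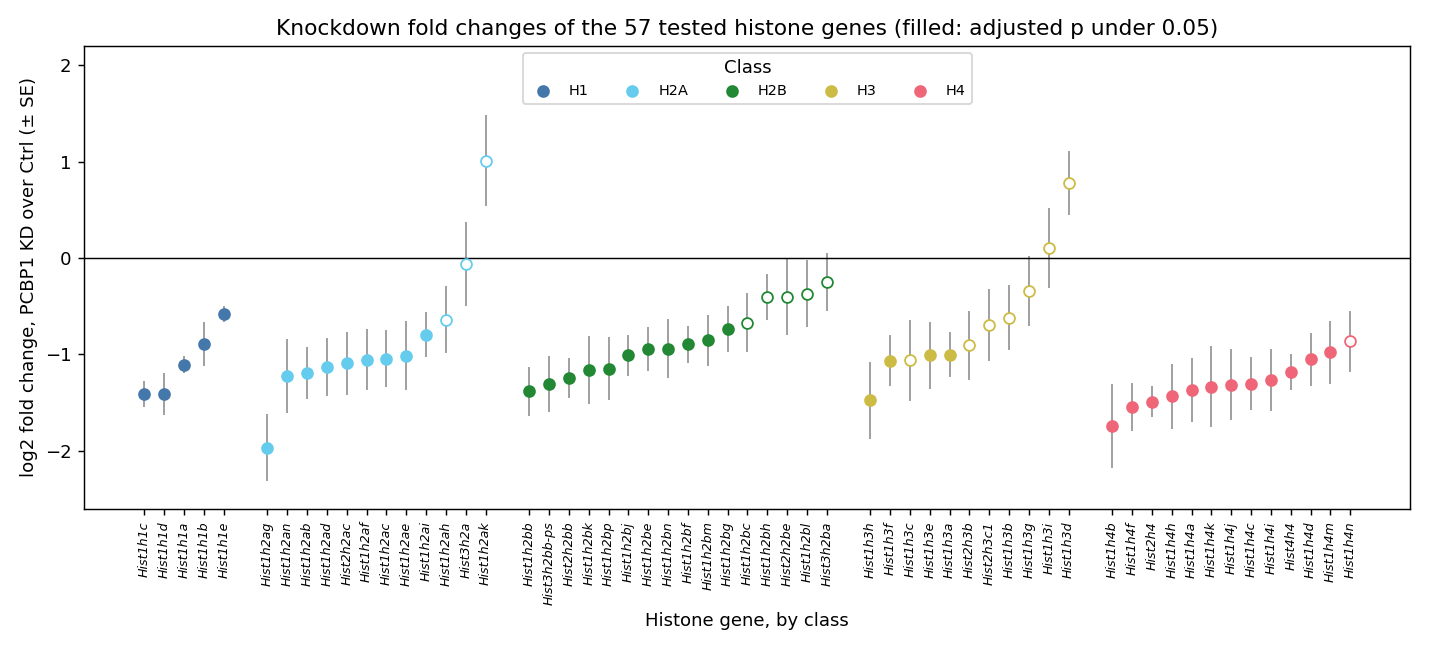
Log2 fold change of PCBP1 KD over Ctrl for each of the 57 tested histone genes, by class, with bars of 1 SE. Filled points have an adjusted p under 0.05. All 41 filled points lie below 0, and the 3 genes above 0 (Hist1h2ak, Hist1h3d and Hist1h3i) are open.

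Linker histone H1 binds the DNA between nucleosomes and compacts the fibre. Of the 6 H1 genes 5 were tested, and all 5 fell (median log2 fold change -1.11). Hist1h1c stood at 159.6 and 113 RPM in the PCBP1 KD libraries, against 345 and 329 RPM in the Ctrl libraries. It was 2.66-fold lower (log2 -1.41, SE 0.14, edgeR, adjusted p = 1.25e-04). Hist1h1d stood at 66.5 and 39.1 RPM with PCBP1 KD, against 144 and 117 RPM with Ctrl, 2.66-fold lower (adjusted p = 0.00102). In both genes the lower Ctrl library was well above the higher PCBP1 KD library. Hist1h1a stood at 37.4 and 33.3 RPM with PCBP1 KD, against 69.9 and 71.4 RPM with Ctrl, 2.15-fold lower (adjusted p = 4.47e-05), with the smallest SE on the log2 scale among the tested histone genes together with Hist1h1e (0.08 each). Hist1h1e stood at 116 and 97.2 RPM with PCBP1 KD, against 149 and 146 RPM with Ctrl, 1.49-fold lower (adjusted p = 7.94e-04). Hist1h1b varied within both groups, at 64.0 and 40.8 RPM with PCBP1 KD, against 108 and 73.3 RPM with Ctrl, 1.86-fold lower (adjusted p = 0.0115), yet the groups did not overlap. The sixth gene, Hist1h1t, which encodes the H1 of spermatocytes, was at 0.322 to 0.698 RPM in the 4 libraries and was not tested.

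H4 and H3 form the tetramer at the core of the nucleosome. Of the 13 H4 genes, all of them tested, 12 fell (median log2 fold change -1.31), and in all 13 both PCBP1 KD libraries were below both Ctrl libraries. Hist1h4d, the highest H4 gene, stood at 179 and 85.6 RPM with PCBP1 KD, against 263 and 247 RPM with Ctrl (log2 -1.05, SE 0.27, edgeR, adjusted p = 0.0133). Hist1h4c stood at 82.1 and 38.9 RPM with PCBP1 KD, against 137 and 140.4 RPM with Ctrl, 2.47-fold lower (adjusted p = 0.00493). Hist1h4f stood at 63.7 and 33.1 RPM with PCBP1 KD, against 142 and 119.8 RPM with Ctrl, 2.91-fold lower (adjusted p = 0.00136). In these 3 genes the second PCBP1 KD library was the lowest of the 4. Hist1h4b stood at 9.09 and 2.38 RPM with PCBP1 KD, against 19.3 and 16.7 RPM with Ctrl, 3.34-fold lower, the largest fall among the H4 genes (log2 -1.74, SE 0.43, edgeR, adjusted p = 0.0111). Its log2 fold change ran from -3.01 without PCBP1 KD replicate 1 to -1.12 without PCBP1 KD replicate 2.

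Hist2h4, on chromosome 3, stood at 24.0 and 16.6 RPM with PCBP1 KD, against 55.9 and 50.3 RPM with Ctrl, 2.81-fold lower (adjusted p = 1.98e-04). Hist4h4, alone on chromosome 6, stood at 19.7 and 12.7 RPM with PCBP1 KD, against 33.4 and 35.0 RPM with Ctrl, 2.27-fold lower (adjusted p = 0.00113). Both H4 genes outside the chromosome 13 cluster thus fell, and both share almost no sequence with the other histone genes (1.01% and 0% of their 50-base words). Hist1h4k stood at 43.2 and 12.9 RPM with PCBP1 KD, against 61.7 and 69.9 RPM with Ctrl, 2.52-fold lower. Hist1h4h stood at 34.2 and 13.7 RPM with PCBP1 KD, against 54.3 and 65.99 RPM with Ctrl, 2.70-fold lower. Hist1h4a stood at 20.1 and 8.11 RPM with PCBP1 KD, against 31.5 and 36.4 RPM with Ctrl, 2.58-fold lower. In each of these 3 the second Ctrl library was the highest and the second PCBP1 KD library the lowest. Hist1h4j stood at 12.5 and 4.27 RPM with PCBP1 KD, against 19.2 and 19.8 RPM with Ctrl, 2.48-fold lower. Hist1h4i stood at 7.15 and 3.36 RPM with PCBP1 KD, against 9.88 and 13.8 RPM with Ctrl, 2.41-fold lower. The 2 lowest H4 genes behaved otherwise between replicates, with little or no gap in favour of the first PCBP1 KD library. Hist1h4m stood at 1.22 and 1.82 RPM with PCBP1 KD, against 3.32 and 2.23 RPM with Ctrl (adjusted p = 0.0357), and Hist1h4n at 1.22 and 1.05 RPM with PCBP1 KD, against 2.26 and 1.61 RPM with Ctrl, just outside the threshold (adjusted p = 0.0507). DESeq2 did not call Hist1h4b, Hist1h4d, Hist1h4j, Hist1h4k or Hist1h4m (adjusted p 0.0586 to 0.138), and edgeR lost Hist1h4m without Ctrl replicate 1 (0.188) or PCBP1 KD replicate 1 (0.172).

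Of the 12 H3 genes 11 were tested, 4 fell and none was called higher (median log2 fold change -0.90). Over all genes tested 26.7% fell and 29.3% rose, so by calls H3 lay nearer to all genes than any other class did. At an unadjusted p under 0.05 edgeR had 6 lower and 1 higher, and DESeq2 called none higher. Hist1h3e, the highest H3 gene by its Ctrl mean, stood at 39.6 and 15.0 RPM with PCBP1 KD, against 52.7 and 49.6 RPM with Ctrl (log2 -1.01, SE 0.35, edgeR, adjusted p = 0.0408). Hist1h3f stood at 34.7 and 17.5 RPM with PCBP1 KD, against 54.3 and 47.1 RPM with Ctrl, 2.09-fold lower (adjusted p = 0.0104). Hist1h3a stood at 18.1 and 10 RPM with PCBP1 KD, against 27.0 and 25.5 RPM with Ctrl, 2.00-fold lower (adjusted p = 0.00763). These 3 have separate groups, with Ctrl libraries that lie close together. Hist1h3h stood at 8.83 and 2.80 RPM with PCBP1 KD, against 16.8 and 13.5 RPM with Ctrl, 2.78-fold lower (adjusted p = 0.0158). The Hist1h3e call was lost without Ctrl replicate 1 (adjusted p = 0.0549), and DESeq2 called neither Hist1h3e (0.168) nor Hist1h3h (0.0880).

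The other 7 tested H3 genes did not pass. Hist1h3c stood at 19.1 and 5.59 RPM with PCBP1 KD, against 24.3 and 23.7 RPM with Ctrl (log2 -1.06, adjusted p = 0.0640). Hist2h3b stood at 3.74 and 1.54 RPM with PCBP1 KD, against 4.73 and 4.54 RPM with Ctrl (log2 -0.90, adjusted p = 0.0632). In both of these the groups were separate, but the first PCBP1 KD library lay nearer to Ctrl than to its own replicate. Hist1h3b stood at 19.7 and 7.90 RPM with PCBP1 KD, against 21.4 and 18.1 RPM with Ctrl. Hist1h3g stood at 8.44 and 3.71 RPM with PCBP1 KD, against 8.61 and 5.80 RPM with Ctrl. The groups overlapped in both. Hist2h3c1 stood at 0.967 and 0.699 RPM with PCBP1 KD, against 1.48 and 1.05 RPM with Ctrl, and was the only tested histone gene with a whole group under 1 RPM, so it passed the filter through its Ctrl libraries. Hist1h3d and Hist1h3i ran the other way. Hist1h3d stood at 8.06 and 3.99 RPM with PCBP1 KD, against 3.46 and 3.07 RPM with Ctrl (log2 0.78, adjusted p = 0.0813), and Hist1h3i at 17.6 and 6.08 RPM with PCBP1 KD, against 11.8 and 8.73 RPM with Ctrl (log2 0.11, adjusted p = 0.844). Without PCBP1 KD replicate 2 both were called higher (adjusted p 0.00516 and 0.0271), while without PCBP1 KD replicate 1 Hist1h3i was called lower (log2 -0.85, adjusted p = 0.0209).

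H2A and H2B pair into dimers that flank the tetramer. Of the 20 H2A genes 12 were tested and 9 fell (median log2 fold change -1.05). Hist2h2ac, the highest H2A gene, stood at 24.0 and 9.58 RPM with PCBP1 KD, against 34.4 and 32.3 RPM with Ctrl (log2 -1.09, SE 0.33, edgeR, adjusted p = 0.0246). Hist1h2ab stood at 15.3 and 7.41 RPM with PCBP1 KD, against 25.2 and 23.3 RPM with Ctrl, 2.28-fold lower (adjusted p = 0.00719). Hist1h2ac stood at 7.73 and 3.71 RPM with PCBP1 KD, against 11.9 and 10.1 RPM with Ctrl, 2.06-fold lower (adjusted p = 0.0188). As among the H4 genes, the second PCBP1 KD library was the lowest in all 3. Hist1h2ag stood at 1.68 and 0.699 RPM with PCBP1 KD, against 4.30 and 4.47 RPM with Ctrl, the largest fold change of any tested histone gene, 3.91-fold lower (log2 -1.97, SE 0.35, adjusted p = 0.00215), from counts of 26 and 10 with PCBP1 KD, against 61 and 64 with Ctrl. Its log2 fold change ran from -2.73 to -1.52 as single libraries were left out.

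Hist1h2ai stood at 9.34 and 5.38 RPM with PCBP1 KD, against 11.6 and 12.1 RPM with Ctrl, 1.73-fold lower. Hist1h2ad stood at 3.42 and 1.75 RPM with PCBP1 KD, against 5.50 and 5.10 RPM with Ctrl, 2.19-fold lower. Hist1h2ae stood at 3.42 and 1.40 RPM with PCBP1 KD, against 4.44 and 4.68 RPM with Ctrl, 2.02-fold lower. The groups were separate in these 3 genes. Hist1h2af stood at 2.71 and 1.82 RPM with PCBP1 KD, against 3.39 and 5.38 RPM with Ctrl, 2.07-fold lower, and Hist1h2an at 2.13 and 0.909 RPM with PCBP1 KD, against 3.95 and 2.72 RPM with Ctrl, 2.33-fold lower. The calls for Hist1h2ae, Hist1h2af, Hist1h2ai and Hist1h2an were each lost without PCBP1 KD replicate 2 (adjusted p 0.148, 0.0912, 0.0606 and 0.114) and also without 1 or both Ctrl libraries. DESeq2 did not call Hist1h2ae, Hist1h2an or Hist2h2ac (adjusted p 0.0588, 0.0512 and 0.110). Hist1h2ak differed from the rest of its class. It stood at 18.2 and 5.73 RPM with PCBP1 KD, against 5.01 and 6.07 RPM with Ctrl (log2 1.01, SE 0.47, adjusted p = 0.104), so that 1 PCBP1 KD library was far above the other 3 libraries. It was called higher without PCBP1 KD replicate 2 (log2 1.58, adjusted p = 2.26e-04), and its log2 fold change was -0.046 without PCBP1 KD replicate 1. Hist1h2ah stood at 4.77 and 2.03 RPM with PCBP1 KD, against 5.22 and 4.68 RPM with Ctrl, and Hist3h2a at 0.709 and 1.19 RPM with PCBP1 KD, against 0.706 and 1.12 RPM with Ctrl, and neither passed. The 8 untested H2A genes reached at most 0.258 RPM in a library, and 4 of them were at 0 counts in all 4 libraries.

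Of the 19 H2B genes 16 were tested and 11 fell (median log2 fold change -0.92), and the log2 fold change was negative for all 16. Hist2h2bb, on chromosome 3 and the highest H2B gene, stood at 72.6 and 48.9 RPM with PCBP1 KD, against 159 and 109 RPM with Ctrl (log2 -1.24, SE 0.21, edgeR, adjusted p = 0.00174). Hist1h2bb stood at 51.1 and 26.3 RPM with PCBP1 KD, against 103 and 85.0 RPM with Ctrl, 2.61-fold lower (adjusted p = 0.00261). Hist1h2be stood at 46.1 and 25.2 RPM with PCBP1 KD, against 66.9 and 60.7 RPM with Ctrl, 1.93-fold lower (adjusted p = 0.00994). The groups lay well apart in all 3. Hist1h2bj stood at 34.0 and 20.5 RPM with PCBP1 KD, against 56.1 and 45.9 RPM with Ctrl, 2.01-fold lower. Hist1h2bg stood at 40.7 and 21.7 RPM with PCBP1 KD, against 48.6 and 48.1 RPM with Ctrl, 1.67-fold lower. Hist1h2bm stood at 33.1 and 17.0 RPM with PCBP1 KD, against 47.1 and 37.2 RPM with Ctrl, 1.81-fold lower. In these the first PCBP1 KD library lay between the second and the Ctrl libraries. Hist1h2bn stood at 24.4 and 10.8 RPM with PCBP1 KD, against 34.2 and 28.8 RPM with Ctrl, 1.92-fold lower. Hist1h2bk stood at 17.9 and 6.64 RPM with PCBP1 KD, against 27.9 and 23.5 RPM with Ctrl, 2.24-fold lower. Hist1h2bp stood at 3.93 and 1.75 RPM with PCBP1 KD, against 5.93 and 5.87 RPM with Ctrl, 2.22-fold lower. The same order of libraries held here.

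A few H2B genes showed no gap between the PCBP1 KD replicates. Hist1h2bf stood at 3.74 and 3.57 RPM with PCBP1 KD, against 6.77 and 5.87 RPM with Ctrl, 1.86-fold lower (adjusted p = 0.00542). The pseudogene Hist3h2bb-ps, on chromosome 11, stood at 1.03 and 0.979 RPM with PCBP1 KD, against 2.12 and 2.51 RPM with Ctrl, 2.47-fold lower (adjusted p = 0.00670). Both are low genes whose 2 PCBP1 KD values nearly coincide. The 5 H2B genes that did not pass include Hist1h2bc, at 21.5 and 9.58 RPM with PCBP1 KD, against 21.7 and 24.4 RPM with Ctrl (log2 -0.67, adjusted p = 0.0961). Hist1h2bh stood at 25.0 and 14.4 RPM with PCBP1 KD, against 27.3 and 21.2 RPM with Ctrl, and Hist1h2bl at 6.57 and 2.80 RPM with PCBP1 KD, against 5.64 and 5.66 RPM with Ctrl. Hist2h2be stood at 1.42 and 0.909 RPM with PCBP1 KD, against 1.06 and 1.82 RPM with Ctrl, and Hist3h2ba at 1.22 and 1.26 RPM with PCBP1 KD, against 1.41 and 1.33 RPM with Ctrl. Only Hist1h2bc and Hist3h2ba of these 5 had separate groups, by narrow margins. The calls for Hist1h2bm and Hist1h2bn were lost without Ctrl replicate 1 (adjusted p 0.0701 and 0.0653) and that for Hist1h2bp without PCBP1 KD replicate 2 (0.0507). DESeq2 did not call Hist1h2bg, Hist1h2bk, Hist1h2bm, Hist1h2bn or Hist3h2bb-ps (0.0650 to 0.133).

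The 2 PCBP1 KD libraries differed in histone mRNA more than in the median gene. Over the 57 tested genes the first stood above the second by a median of 0.94 on the log2(RPM + 0.5) scale, and did so in 54 genes, where the median over all tested genes was 0.02. Between the Ctrl libraries the median was 0.09 for the histone genes and 0.01 for all genes. Of the 66 genes over 2-fold higher in the first PCBP1 KD library than in the second, 23 were histone genes, and of the 63 such genes between the Ctrl libraries 0 were. The gap was smaller for the H1 genes, with a median of 0.49, than for H2A (0.93), H2B (0.88), H3 (1.09) and H4 (1.06). Without PCBP1 KD replicate 1, the histone genes had a median log2 fold change of -1.54 in edgeR. Without PCBP1 KD replicate 2 their median was -0.67. The direction of the family's median was thus the same with either PCBP1 KD library, and its size differed with which of them was used. A fit that leaves 1 PCBP1 KD library holds no spread within that group, so its calls do not show that a result is robust.

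**Figure D3:**
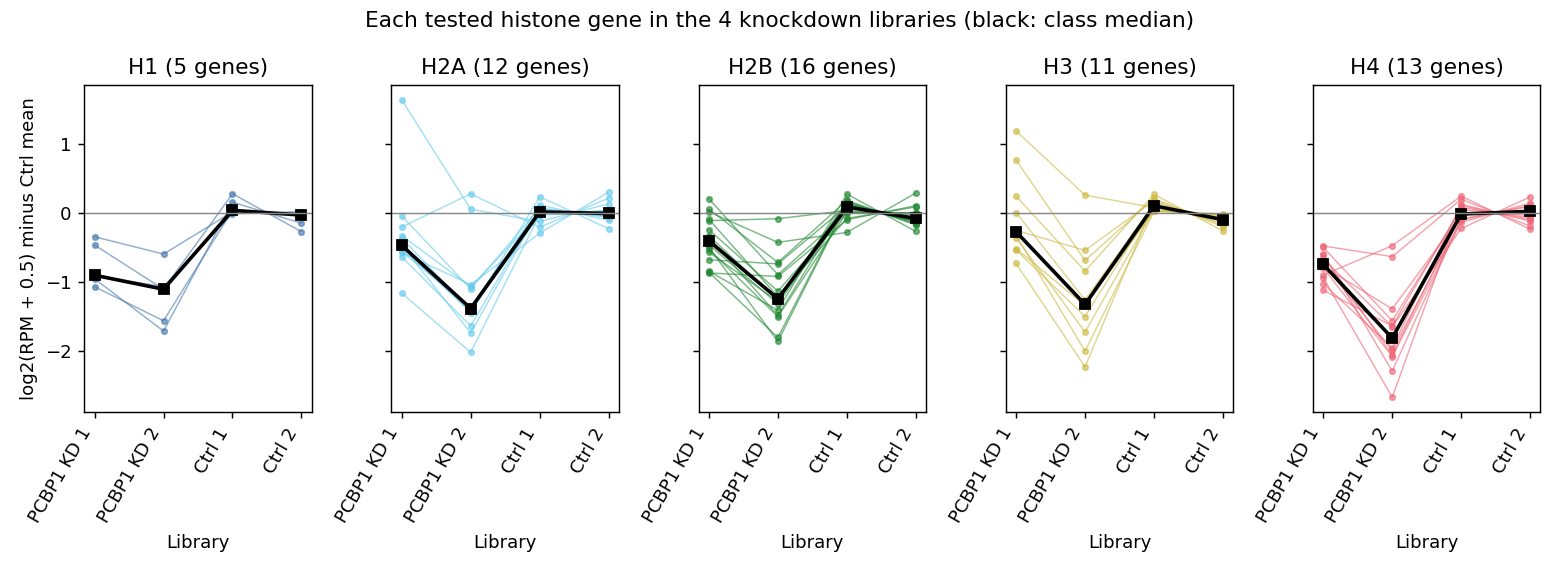
Level of each tested histone gene in the 4 knockdown libraries, as log2(RPM + 0.5) minus the mean of its 2 Ctrl libraries, by class. Thin lines are genes and black squares are class medians. In each class the median is lower in PCBP1 KD library 2 than in library 1, and both lie below the Ctrl libraries.

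Other measures also moved with the library number. Mki67, a marker of cycling cells, stood at 120.4 and 76.8 RPM with PCBP1 KD, against 116 and 94.8 RPM with Ctrl (log2 -0.20, adjusted p = 0.389). Over 16 other proliferation genes outside S phase, the first library stood above the second by a median of 0.71 with PCBP1 KD and 0.48 with Ctrl. Over 46 S phase genes these medians were 0.22 with PCBP1 KD and 0.16 with Ctrl. The 2 CD8 T cell markers, Cd8a and Cd8b1, summed to 92.0 and 11.6 RPM with PCBP1 KD, against 90.5 and 11.9 RPM with Ctrl, so they separated library 1 from library 2 in both groups alike. The dendritic markers (3 of 3 found, none at 0 in all libraries) summed to 9.92 and 7.76 RPM with PCBP1 KD, against 12.4 and 11.9 RPM with Ctrl. Marker sums of NK, B, macrophage, neutrophil, erythroid and fibroblast cells were below 1 RPM in each of the 4 libraries, with Lyz2, S100a8 and Hba-a1 at 0 throughout. The part of cycling or CD8 T cells in the histone values was not tested.

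Calls were counted by position and by sequence, beside the 26.7% of all genes tested that fell. On chromosome 13, 36 of 47 tested genes fell, on chromosome 3 it was 3 of 6, on chromosome 11 it was 1 of 3 and on chromosome 6 the single gene fell. Of the 40 tested genes with a stem-loop in the annotated transcript 31 fell (median log2 fold change -1.06), and of the 17 without 10 fell (median -0.90). Among those 17 only Hist1h2bc and Hist2h2be have a model with ample room for the element, and neither passed. The 10 that fell have models that stop fewer than 60 bases after the stop codon, or are the pseudogene Hist3h2bb-ps. Whether those 10 lack the element is therefore not known. In 9 cases an H2A and an H2B gene start head to head, with promoter windows that overlap. In 7 of these both partners were tested, and both fell in 4 (Hist1h2ad with Hist1h2bf, Hist1h2ae with Hist1h2bg, Hist1h2ag with Hist1h2bj and Hist1h2an with Hist1h2bp), while 1 partner fell in the other 3. Coding sequences of a class are alike, and a median of 49.4% of a gene's 50-base words (range 0% to 100%) recur in another histone gene. Among the 24 tested genes with at least 50% of such words 16 fell (median -0.99), and among the 33 with fewer 25 fell (median -1.06). How reads that fit several copies were counted, and whether the counting used strand, is not stated in the labels or processing notes, so the split of counts among near-identical or adjoining genes is uncertain.

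In the authors' deposited table for the knockdown, 56 of the 70 genes had an adjusted p. Of these, 21 fell and 0 rose in the authors' deposited table, where 20.1% of all its genes fell and 23.5% rose. The 13 genes not tested here reached at most 0.706 RPM in a library, and 5 had no counts at all.

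Among 32 genes of histone transcription and 3′ end processing, 15 rose (46.9%) and 9 fell (28.1%), where 29.3% of all genes tested rose and 26.7% fell, so the share that fell lay near that of all genes. Slbp, which encodes the stem-loop binding protein, stood at 56.6 and 49.3 RPM with PCBP1 KD, against 91.9 and 92.4 RPM with Ctrl (log2 -0.91, SE 0.08, edgeR, adjusted p = 7.94e-05). Lsm10, a subunit found in the U7 snRNP, stood at 13.4 and 10.8 RPM with PCBP1 KD, against 17.1 and 20.2 RPM with Ctrl (log2 -0.73, adjusted p = 0.00432). Both fell, with separate groups. Its partner in the U7 snRNP, Lsm11, stood at 18.9 and 17.8 RPM with PCBP1 KD, against 14.7 and 15.9 RPM with Ctrl and did not pass (adjusted p = 0.281). Npat, the coactivator of histone transcription, rose, to 80.9 and 81.2 RPM with PCBP1 KD, against 64.2 and 58.4 RPM with Ctrl (log2 0.30, adjusted p = 0.0108). Casp8ap2, which encodes the processing factor FLASH, fell slightly, at 85.7 and 82.0 RPM with PCBP1 KD, against 102 and 87.4 RPM with Ctrl (log2 -0.28, adjusted p = 0.0223). The Npat and Casp8ap2 calls were each kept in 2 of the 4 fits with a library left out. Zfp473, a U7-associated zinc finger protein, fell at 0.773 and 1.05 RPM with PCBP1 KD, against 1.69 and 1.75 RPM with Ctrl (log2 -1.02, adjusted p = 0.0289), a call kept in 1 of those 4 fits. Cpsf3, the nuclease that cuts histone pre-mRNA, stood at 74.0 and 78.5 RPM with PCBP1 KD, against 43.5 and 43.4 RPM with Ctrl (log2 0.70). Ncbp1 and Srrt, of the cap-binding complex, had log2 fold changes of 0.75 and 0.86, and Snrpe, a core snRNP protein, of -0.88. All 4 of these passed.

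Of 22 tested genes of histone mRNA decay 7 rose (31.8%) and 8 fell (36.4%), beside the same 29.3% and 26.7% over all genes, so the counts say little about these genes as a list. Upf1, the helicase that SLBP recruits to start decay, stood at 99.4 and 100.1 RPM with PCBP1 KD, against 51.7 and 49.5 RPM with Ctrl (log2 0.87, adjusted p = 4.44e-05). Dcp1a, of the decapping complex, had a log2 fold change of 1.10, Lsm6 of 1.15 and Exosc10, of the nuclear exosome, of 0.89. These 4 rose. Atr, the replication stress kinase, fell, at 66.9 and 62.0 RPM with PCBP1 KD, against 108 and 102 RPM with Ctrl (log2 -0.81, adjusted p = 6.37e-05). Of 26 histone chaperones 14 rose (53.8%) and 7 fell (26.9%, near the share of all genes; median log2 fold change 0.29). Supt16h and Ssrp1, the subunits of the FACT complex, had log2 fold changes of 1.33 and 1.15. Supt6h, a chaperone of elongating polymerase, had 1.62, Anp32e, which removes H2A.Z, had 1.56 and Set had 0.99. All 5 rose.

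Of the histone genes that are expressed outside S phase and end in a poly(A) tail, 9 were tested. Among them 1 rose (11.1%, where 29.3% of all genes did) and 3 fell (33.3%, near the 26.7% of all genes). H3f3b, which encodes the variant H3.3, stood at 453 and 468 RPM with PCBP1 KD, against 114 and 109.8 RPM with Ctrl (log2 1.93, SE 0.07, edgeR, adjusted p = 6.89e-06), the only one that rose. H3f3a, which encodes the same protein, stood at 11.1 and 10.3 RPM with PCBP1 KD, against 13.5 and 12.4 RPM with Ctrl and passed narrowly (log2 -0.38, adjusted p = 0.0399), a call lost whichever library was left out. H2afz, which encodes H2A.Z, stood at 11.1 and 10.3 RPM with PCBP1 KD, against 31.5 and 22.6 RPM with Ctrl (log2 -1.43, adjusted p = 3.03e-04). Cenpa, the H3 variant of centromeres, stood at 24.4 and 17.6 RPM with PCBP1 KD, against 37.0 and 30.2 RPM with Ctrl (log2 -0.78, adjusted p = 0.00537). H2afx, whose mRNA can end either way, stood at 35.2 and 17.6 RPM with PCBP1 KD, against 27.9 and 37.0 RPM with Ctrl and did not pass (adjusted p = 0.265). Its PCBP1 KD libraries were apart in the same order as those of the replication-dependent genes. H1f0 stood at 7.99 and 6.29 RPM with PCBP1 KD, against 6.07 and 6.35 RPM with Ctrl, with overlapping groups.

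Of 46 S phase genes 23 fell, where 26.7% of all genes did, and 8 rose (17.4%, where 29.3% of all genes did; median log2 fold change -0.32), and of 16 other proliferation genes 7 fell and 1 rose (median -0.49). Ccne2, the cyclin E2 of S phase entry, had a log2 fold change of -1.25 and Chek1, the checkpoint kinase, of -1.24. Both fell. Cdc25a, the phosphatase that activates CDK2, stood at 50.5 and 49.2 RPM with PCBP1 KD, against 22.3 and 21.3 RPM with Ctrl (log2 1.09), and Mcm4, of the replicative helicase, had a log2 fold change of 0.96. These rose, so that S phase genes did not move as a block. Cdk1, the kinase of mitotic entry, stood at 45.1 and 31.3 RPM with PCBP1 KD, against 89.7 and 64.0 RPM with Ctrl (log2 -1.11, adjusted p = 0.00210), and Aurkb, Bub1 and Bub1b also fell, the Bub1 call being kept in 2 of the 4 fits with a library left out. Plk1 rose, at 8.31 and 4.76 RPM with PCBP1 KD, against 2.40 and 1.54 RPM with Ctrl (log2 1.63, adjusted p = 0.00501).

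In the polyA RNA of the CPX experiment few histone genes were measured, and their summed level did not separate the groups. The 70 genes summed to 58.0 and 42.6 RPM with CPX, against 28.6 and 47.8 RPM with DMSO (exact permutation p = 0.667), or 0.00580% and 0.00426% of the total with CPX, against 0.00286% and 0.00478% with DMSO. Of the 70 genes 10, all on chromosome 13, reached 1 RPM in 2 libraries and were tested (8 of the 46 with a stem-loop in the annotated transcript and 2 of the 24 without, Hist1h2bc and Hist1h2ai), and 2 of them rose, where 20.0% of all genes tested rose (limma on log2(RPM + 0.5), adjusted p under 0.05). None was called lower, where 24.8% of all genes were (44.7% were called in either direction), and 1 was lower at an unadjusted p under 0.05. The median log2 fold change was -0.08, beside -0.12 over all genes. Both CPX libraries were above both DMSO libraries for 4 genes (34.2% of all genes tested) and below them for 3 (42.1% of all genes tested). Replicates differed here too. In the 10 genes the median of log2(RPM + 0.5) in library 1 minus library 2 was -0.54 with DMSO and 0.21 with CPX. Over all genes tested it was -0.06 with DMSO and -0.10 with CPX, and over 16 other proliferation genes -0.96 with DMSO and 0.61 with CPX. The part of this gap in the overlap of the sums was not tested.

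Hist1h2bc, an H2B gene without a stem-loop in its annotated transcript, had the largest change. It stood at 14.6 and 9.62 RPM in the CPX libraries, against 1.02 and 0.921 RPM in the DMSO libraries. In table units these are 281 and 185 with CPX, against 20 and 18 with DMSO. On the log2(RPM + 0.5) scale of the fit it was 8.43-fold higher (log2 3.08, SE 0.34, limma, adjusted p = 0.00309). That is less than the ratio of the RPM means, which were 12.1 with CPX and 0.969 with DMSO. Both CPX libraries lay far above both DMSO libraries, and the log2 fold change ran from 2.78 to 3.37 as single libraries were left out. Its annotated transcript runs 742 bases past the stop codon, with no AATAAA or ATTAAA in the last 40 bases. No promoter entry was found for it. In total RNA the same gene had stood at 21.5 and 9.58 RPM with PCBP1 KD, against 21.7 and 24.4 RPM with Ctrl.

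Hist1h1c, whose annotated transcript runs 840 bases past its stem-loop to a poly(A) signal, stood at 4.95 and 2.55 RPM with CPX, against 0.763 and 1.23 RPM with DMSO. On the same scale it was 2.76-fold higher (log2 1.46, SE 0.40, limma, adjusted p = 0.0307), again less than the ratio of the RPM means. The groups were separate. The call was lost without CPX replicate 1 (adjusted p = 0.0718), DMSO replicate 1 (0.175) or DMSO replicate 2 (0.0777), after quantile normalization (0.0991) and with no filter on low values (0.0922). Hist1h4i, the highest of the 10 in DMSO, stood at 6.93 and 7.54 RPM with CPX, against 3.81 and 4.81 RPM with DMSO (log2 0.69, adjusted p = 0.127). Hist1h2ae stood at 2.03 and 1.66 RPM with CPX, against 1.02 and 1.38 RPM with DMSO (log2 0.47, adjusted p = 0.234). Neither passed, though both had separate groups.

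The remaining 6 tested genes had log2 fold changes from -1.02 to 0.11, and none passed. Hist1h2bj stood at 1.15 and 0.884 RPM with CPX, against 1.83 and 3.53 RPM with DMSO (log2 -1.02, SE 0.37, adjusted p = 0.0690). Hist1h3c stood at 2.40 and 2.03 RPM with CPX, against 2.54 and 4.81 RPM with DMSO (log2 -0.57, adjusted p = 0.263). Hist1h4d, whose model runs 770 bases past its stem-loop, stood at 1.30 and 1.14 RPM with CPX, against 1.47 and 2.97 RPM with DMSO (log2 -0.60, adjusted p = 0.224). In these 3 genes the groups were separate and the second DMSO library was the highest. Hist1h4b stood at 0.573 and 1.04 RPM with CPX, against 0.763 and 1.74 RPM with DMSO. Hist1h2ag stood at 1.67 and 1.40 RPM with CPX, against 1.47 and 2.56 RPM with DMSO. Hist1h2ai stood at 1.41 and 1.04 RPM with CPX, against 0.915 and 1.28 RPM with DMSO. All 3 overlapped between the groups. After quantile normalization Hist1h2bj, Hist1h4b and Hist1h4d were called lower (adjusted p 0.0157, 0.0488 and 0.0376). Their log2 fold changes were negative in both fits, while those of Hist1h2ae and Hist1h2ai turned negative (-0.045 and -0.57).

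**Figure D4:**
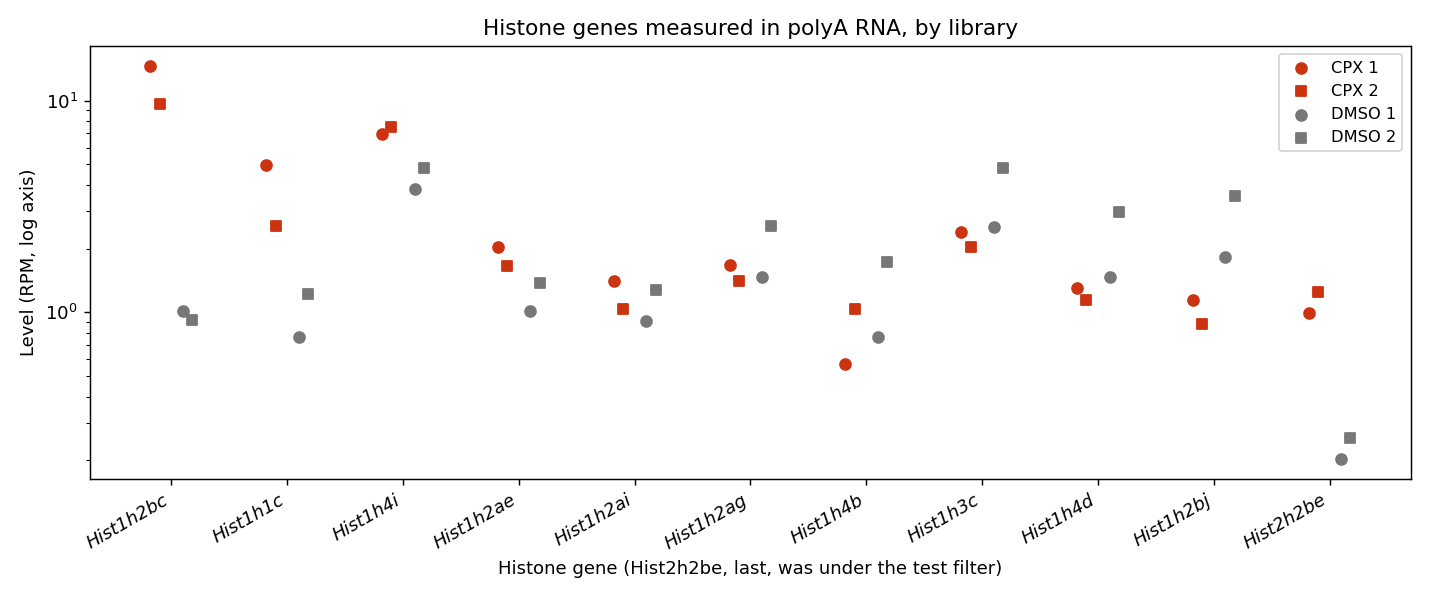
Level of the 10 histone genes tested in polyA RNA, and of Hist2h2be, in each library (RPM, log axis; red CPX, grey DMSO; circles library 1, squares library 2). Hist1h2bc stands at 14.6 and 9.62 RPM with CPX, against 1.02 and 0.921 RPM with DMSO, and every other gene stays below 10 RPM.

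The 60 untested genes reached at most 1.79 RPM in a library, and 8 of them were at 0 in all 4. Hist2h2be, the other histone gene whose transcript model has room for the stem-loop and lacks it, was among them, at 0.990 and 1.25 RPM with CPX, against 0.203 and 0.256 RPM with DMSO. In the authors' deposited table for CPX, 55 of the 70 genes had an adjusted p, 3 rose (22.1% of all its genes rose) and 0 fell (19.2% fell). The 3 were Hist1h2bc, Hist1h1c and Hist2h2be, with log2 fold changes of 3.55, 1.85 and 2.06 in the authors' deposited table. By class, H2B summed to 21.8 and 14.9 RPM with CPX, against 6.31 and 10.8 RPM with DMSO, and H1 to 6.98 and 3.59 RPM with CPX, against 1.47 and 3.12 RPM with DMSO. Those 2 classes were separate between the groups (exact permutation p = 0.333, the smallest possible), and in each the separation rested on 1 gene. Without Hist1h2bc, H2B summed to 7.14 and 5.30 RPM with CPX, against 5.29 and 9.87 RPM with DMSO, and without Hist1h1c, H1 summed to 2.03 and 1.04 RPM with CPX, against 0.712 and 1.89 RPM with DMSO, so both then overlapped. H2A summed to 8.13 and 6.19 RPM with CPX, against 6.05 and 8.90 RPM with DMSO. H3 summed to 8.70 and 4.89 RPM with CPX, against 5.70 and 10.3 RPM with DMSO, and H4 to 12.4 and 12.99 RPM with CPX, against 9.10 and 14.7 RPM with DMSO. These 3 overlapped.

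Within the same experiment, Slbp stood at 78.0 and 67.0 RPM with CPX, against 70.6 and 77.0 RPM with DMSO (log2 -0.03, limma, adjusted p = 0.928). Of the 32 genes of histone transcription and processing 14 fell (43.8%, where 24.8% of all genes did) and 2 rose (6.25%, where 20.0% did; median log2 fold change -0.65). Zfp473 rose, at 18.4 and 12.5 RPM with CPX, against 1.07 and 1.94 RPM with DMSO (log2 3.0, SE 0.39, adjusted p = 0.00407), as did Pcf11, a cleavage and termination factor, at 304 and 301 RPM with CPX, against 76.2 and 83.4 RPM with DMSO. Lsm11 fell, at 12.2 and 13.2 RPM with CPX, against 25.3 and 24.8 RPM with DMSO (log2 -0.96, adjusted p = 0.0367), a call kept in 2 of 4 fits with a library left out. Npat stood at 39.5 and 32.8 RPM with CPX, against 59.3 and 62.2 RPM with DMSO and did not pass (adjusted p = 0.0508). Nor did Casp8ap2 or Lsm10. Snrpd3, Ncbp1 and Nfyc, a subunit of NF-Y, fell, with log2 fold changes of -1.35, -1.18 and -1.58, and each of these calls was kept in 2 of those 4 fits.

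Of the 22 decay genes 10 fell (45.5%) and 1 rose, where 24.8% of all genes tested fell and 20.0% rose. Dis3, the exosome nuclease, stood at 18.6 and 18.4 RPM with CPX, against 177 and 159 RPM with DMSO (log2 -3.15, adjusted p = 0.00242), and Zcchc6, which adds uridines to RNA ends, rose at 674 and 394 RPM with CPX, against 94.3 and 80.4 RPM with DMSO (log2 2.56). Of the 26 chaperones 11 fell (42.3%) and 2 rose. Chaf1a, a subunit of the CAF-1 complex that loads histones at the fork, fell, at 5.47 and 4.16 RPM with CPX, against 32.8 and 43.4 RPM with DMSO (log2 -2.86, adjusted p = 0.00316), and Hira, which loads H3.3, had a log2 fold change of -1.76. Of the 46 S phase genes 16 fell (34.8%) and 1 rose. Cdc25a fell, at 7.35 and 4.57 RPM with CPX, against 78.4 and 85.7 RPM with DMSO (log2 -3.71), and Rrm2, Mcm2 and Uhrf1 also fell, with log2 fold changes of -1.79, -1.64 and -1.85. Of 16 other proliferation genes 6 fell, among them Cdk1 at 13.2 and 10.9 RPM with CPX, against 69.3 and 114 RPM with DMSO (log2 -2.84), while Mki67 stood at 372 and 176 RPM with CPX, against 207 and 381 RPM with DMSO and did not pass. Of the 9 histone genes outside the replication-dependent set, 2 fell (22.2%, near the 24.8% of all genes) and none rose, where 20.0% of all genes did. The 2 that fell were H2afx, at 13.7 and 14.6 RPM with CPX, against 43.3 and 56.7 RPM with DMSO (log2 -1.78, limma, adjusted p = 0.00625), and H1f0, at 2.34 and 0.520 RPM with CPX, against 5.70 and 4.76 RPM with DMSO (log2 -1.74, adjusted p = 0.0435). The H1f0 call was kept in 1 and the H2afx call in 3 of the 4 fits with a library left out, as were those of Hira, Rrm2, Mcm2 and Uhrf1 in 3. H3f3a, H3f3b and H2afz did not pass.

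Markers of other cells were low in the CPX experiment, and several sets stood higher with CPX. The dendritic markers (3 of 3 found) summed to 14.0 and 22.1 RPM with CPX, against 1.27 and 1.48 RPM with DMSO. Neutrophil markers (4 of 4 found, S100a8 at 0 throughout) summed to 7.24 and 5.51 RPM with CPX, against 0.102 and 0.0512 RPM with DMSO. Macrophage markers (4 of 4 found, Lyz2 at 0 throughout) summed to 4.06 and 5.61 RPM with CPX, against 0.153 and 0 RPM with DMSO. Fibroblast markers (3 of 3 found, Col3a1 and Dcn at 0 throughout) summed to 4.32 and 3.12 RPM with CPX, against 0.203 and 0.460 RPM with DMSO. B cell markers (4 of 4 found, Ms4a1 at 0 throughout) summed to 2.29 and 2.75 RPM with CPX, against 0.763 and 0.512 RPM with DMSO. The CD8 T cell markers went the other way, at 4.12 and 3.74 RPM with CPX, against 8.09 and 8.24 RPM with DMSO. NK and erythroid markers stayed at or below 0.417 RPM in each library. The 6 T cell markers summed to 1641 and 1417 RPM with CPX, against 879 and 1478 RPM with DMSO, with overlapping groups. The 4 Th1 markers summed to 1245 and 5132 RPM with CPX, against 14205 and 24240 RPM with DMSO. Their part in the values of Hist1h2bc and Hist1h1c was not tested.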

How the data were processed

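Per the submitters' processing notes the tools were cutadapt, STAR, HTSeq and DESeq and the build was mm9, with versions and annotation not stated. The deposited table of values by library holds, for the 4 knockdown libraries, raw counts per gene. For the 4 CPX and DMSO libraries its deposited values are a score, counts multiplied by 1 common factor and rounded (1.96 reads per unit), so reads were not recovered. The authors' deposited result tables hold, per the file headers, a mean signal of normalized counts, a log2 fold change with its error, a Wald score, and raw and adjusted p-values. Labels of the per-library table follow gene order up to a line that holds the constant 23487630 and are displaced after it. All 70 histone genes stand before that line, and their values give the mean signals of both authors' tables under their own names (largest differences 3.35e-07 and 0.809). Lines after it were named through those mean signals.

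Library totals for RPM leave out the constant line. A gene entered a test where 2 or more of the 4 libraries held 1 RPM. Counts of the knockdown went into edgeR 4.0.16 (TMM scaling, quasi-likelihood test). For CPX, log2(RPM + 0.5) went into limma 3.58.1 with a trended variance (R 4.3.3). Both used Benjamini-Hochberg adjustment over all genes tested. The design had allowed for both units. A fold change on the log2(RPM + 0.5) scale understates low genes. The knockdown SE was worked out as the absolute log2 fold change divided by the root of the F statistic. Each edgeR fold change carries TMM scaling and can depart from the ratio of RPM means. With 2 libraries per group, counts and their number limit precision. The totals include mt-Rnr2, at 19.9% and 19.3% of counts with PCBP1 KD, against 17.6% and 17.6% with Ctrl. Gene models come from GENCODE M21 on GRCm38, promoters from RefSeq on GRCm38.p6. The analysis code was tested on simulated data.

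The histone genes and the 6 lists of related genes were chosen with earlier results of these data known. Every tested histone gene is named. From each list the text takes at most 5 genes with the smallest p, and 13 genes chosen by name. The values of 1 S phase gene in these lists are not reported here. The alternatives were other scalings, DESeq2 1.42.0, limma, other filters and pseudocounts, a replicate block and leaving out each library. A fit without 1 library leaves 1 in its group, so its p-values do not measure the spread within that group.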

Additional observations from a re-analysis of the deposited data

How the results depend on the processing

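Knockdown. DESeq2 called 26 histone genes, 26 of them lower. With no filter on low counts 2 were called higher, Hist1h2ak and Hist1h3d, beside 48 lower. For these 2 fits the shares over all genes are not given, so the counts are not set against them. Hist3h2a turned to 0.033 with limma and Hist1h3i to -0.12 after quantile normalization. Over all genes edgeR had 3396 higher and 3086 lower, limma without TMM scaling 4003 and 2502, and limma after quantile normalization 3080 and 3440. Leaving out 1 library at a time, the histone median ran from -1.54 to -0.67, the log2 ratio of the summed level from -1.49 to -0.64 and the number called higher from 0 to 3. Those refits turned Hist1h2ak (-0.046 to 1.58), Hist1h3i (-0.85 to 0.64), Hist3h2a (-0.50 to 0.31), Hist1h2bl (-1.11 to 0.081), Hist1h3g (-1.05 to 0.093) and Hist2h2be (-0.75 to 0.043). The cause was not tested.

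CPX. Quantile normalization called 4 histone genes, 3 lower and 1 higher, moved the median to -0.67, and turned Hist1h2ae to -0.045 and Hist1h2ai to -0.57. A filter of 5 RPM left 2 histone genes (median 1.88), called 1 histone gene, 1 of them higher, and 1529 genes higher overall. Leaving out 1 library at a time, all calls ran from 2103 to 5788 (1089 to 2396 higher, 1012 to 3499 lower) and histone calls from 1 to 2, all higher (1 to 2). Those refits turned Hist1h2ai (-0.054 to 0.28), Hist1h2ag (-0.59 to 0.040) and Hist1h4b (-0.80 to 0.025). Without Hist1h2bc, a choice made after seeing the data, the log2 ratio of the H2B sums was -0.29, against 1.10 with it. The other alternatives listed kept the direction of every tested histone gene.

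Replicate block. The labels share only a number between groups, and same-numbered libraries deviated together with a correlation of 0.289 over 11575 genes in the knockdown and 0.101 over 11485 genes in the CPX experiment. With the replicate number as a block, edgeR called 48 histone genes lower and 2 higher, Hist1h2ak and Hist1h3d (7348 genes in all), and limma called 1 histone gene lower with CPX, Hist1h2bj, beside 2 higher.

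Depth limits the low genes: 13 histone genes in the knockdown and 60 in the CPX experiment were under the filter and were not tested here. Intervals on counts were not used, and each group rests on 2 libraries.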
